A study of Mus musculus with 8 samples.

Results

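The effect of complete Freund's adjuvant (CFA) on gene expression in mouse dorsal root ganglia was estimated as an average over 2 genotypes. CFA is an oil emulsion with killed mycobacteria that sets off lasting inflammation and pain when injected into a paw, and the dorsal root ganglia hold the cell bodies of the sensory neurons that supply the skin, muscle and viscera. The CFA side held 4 libraries, 2 from wild type (WT) and 2 from inducible knockout (iKO) mice, and the vehicle side held the other 4, so all 8 libraries of the series entered. Per the labels, iKO mice carried Avil-iCreERT2/AJwo, an inducible Cre expressed from Avil, a gene of sensory neurons, together with G9aflox/flox. The floxed gene is Ehmt2, and its product G9a methylates histone H3. WT mice were littermates without Cre, and whether they too carried the floxed alleles was not stated. All mice received vehicle or CFA in the left paw, and ganglia were collected 14 days later and flash frozen. The inducing agent, the CFA dose, the age and sex of the mice, the side and level of the ganglia, and whether a library came from 1 animal or a pool were not stated. The p-values below therefore measure the spread between these libraries, which may be technical. Cells other than sensory neurons keep Ehmt2 in such a knockout, and in bulk tissue fewer cells of a type cannot be told apart from less RNA per cell.

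Peripheral inflammation is known to act on sensory ganglia through inflammatory mediators and nerve growth factor, which raise pain peptides and channels in the neurons, and through immune cells that enter the ganglion. Stress programmes are background to such a comparison. Immediate early genes respond within minutes to activity, injury or handling of tissue, glucocorticoid-responsive genes follow the hormone corticosterone, and NRF2 targets and heat shock proteins answer oxidants and misfolded proteins.

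Ehmt2 stood at 74.4 and 65.4 CPM in the WT vehicle libraries, 34 and 31.6 in those of iKO vehicle, 74.2 and 61.3 in those of WT CFA, and 45 and 44.2 in those of iKO CFA. Both iKO groups lay below both WT groups, as the labels state. Its CFA difference did not pass the test (log2 fold change 0.20 ± 0.12 (SE), adjusted p = 0.297). Libraries held 26312614 to 42971823 reads counted to genes. CPM are counts scaled to a common library size and adjusted for library composition. Neuronal RNA was present in every library. The 25 of 25 pan-neuronal genes tested summed to 16360 and 20600 CPM in the WT vehicle libraries and 32040 and 32630 in those of iKO vehicle. Their sums were 32530 and 23120 in those of WT CFA, and 21160 and 20720 in those of iKO CFA. These genes are not particular to the ganglion.

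The test was a quasi-likelihood F-test in edgeR on the contrast of the mean of both CFA groups minus the mean of both vehicle groups, adjusted over 20235 genes by the Benjamini-Hochberg method, and a gene was called at an adjusted p under 0.05. Calls were made for 2364 genes (11.7% of those tested), 1327 higher after CFA (6.56%) and 1037 lower (5.12%). A stricter description asked for all 4 CFA libraries to lie outside all 4 vehicle libraries. That held for 1416 genes above (7.0%) and 741 below (3.66%), and 1187 genes (5.87%) had both the call and the separation, 838 higher (4.14%) and 349 lower (1.72%). Over all genes the median change was -0.054 on the log2 scale. Called genes had a median change of 0.80 where higher and -0.96 where lower.

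The WT and iKO changes had the same sign in 2086 of the 2364 called genes (88.2%, against 50.4% of all genes tested), and the WT change was the larger of the pair in 1766 (74.7%, against 53.7%). The called genes were selected on the average of both changes, which favours a shared sign. Within the same fit, the change was also called in the same direction in WT for 1623 of these genes (16.8% of all genes were called in WT, 8.12% higher and 8.71% lower) and in iKO for 7 (0.0395% of all genes were called in iKO, all of them higher). Cfd was the only gene called in the same direction in the average and in each genotype. All groups shared 1 estimate of the spread, although the 2 libraries of a group differed by a median of 0.468 (log2 CPM) in WT CFA, 0.24 in WT vehicle, 0.177 in iKO CFA and 0.143 in iKO vehicle. Fitted on the 4 iKO libraries alone, 8309 genes were called.

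The calls depended on single libraries. Without any 1 of the WT vehicle, iKO vehicle or iKO CFA libraries, 30 to 105 genes were called, and without WT CFA replicate 1 or 2 the number was 8765 or 4591. Each of these fits kept the sign of at least 2363 of the 2364 genes, which for the 1187 separated genes the selection itself fixes. An additive model of genotype and treatment, which leaves the difference between the genotypes' responses in the error, called 0 genes in edgeR (smallest adjusted p 0.0945, with 4260 genes at an unadjusted p under 0.05), and DESeq2 on the group means called 4746. Only 28 genes stayed called in every fit that left out 1 library, 3 higher and 25 lower. All 28 also passed the test of the difference between genotypes (9.36% of all genes did, 6.19% with the higher response in iKO and 3.17% with the lower), and 7 of them had separated libraries. Among separated genes that rose, WT CFA replicate 1 was the CFA library nearest to vehicle in 680 of 838.

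**Figure D1:**
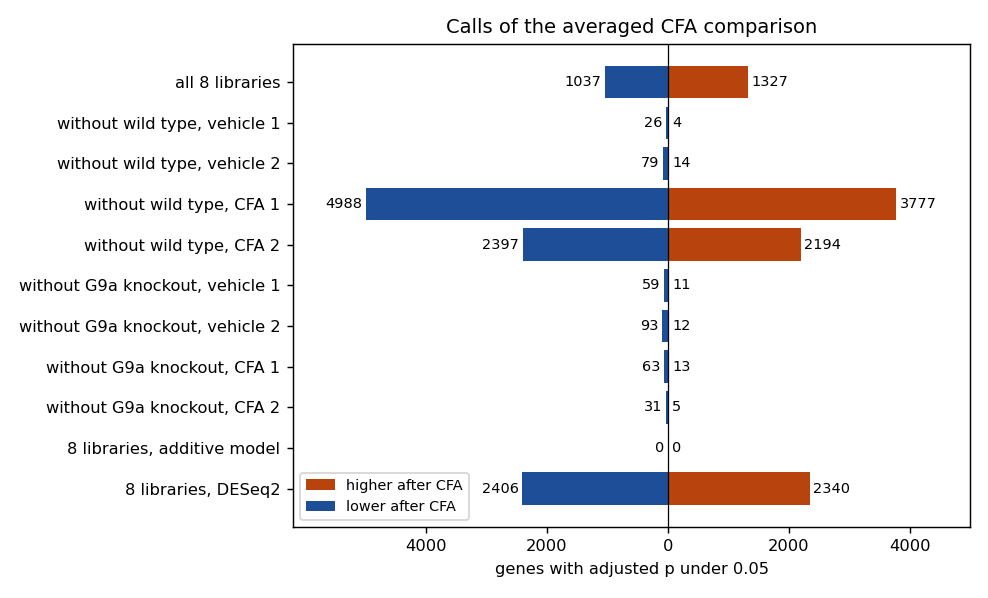
Genes called at an adjusted p under 0.05 (horizontal axis, number of genes, higher to the right and lower to the left) with all 8 libraries, without each library in turn, with an additive model and with DESeq2. The bars shrink to at most 105 genes without any vehicle or iKO CFA library, grow without either WT CFA library, and vanish under the additive model.

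Stress genes were taken as the union of 9 lists (immediate early, heat shock, unfolded protein response, integrated stress response, glucocorticoid-responsive, oxidative stress and NRF2, hypoxia, p53, and nerve injury genes), of which 243 were tested. In this union 13 genes were called higher (5.35%, against 6.56% of all genes) and 35 lower (14.4%, against 5.12%). All 4 CFA libraries lay outside all 4 vehicle libraries for 32 of the 243 (13.2%, against 10.7% of all genes). Of these, 22 were called (9.05% of the 243, against 5.87% of all genes). The 11 higher were 4.53%, close to the 4.14% of all genes. The 11 lower were 4.53%, against 1.72% of all genes. The 11 that rose included antioxidant, chaperone, mitophagy and neurotrophin genes, and the 11 that fell included glucocorticoid-responsive, immediate early and axon growth genes and the co-chaperone Dnajb4. Of all 2364 genes called in the average, 65.2% kept the call in the iKO libraries alone and 17.5% in the WT libraries alone. The call was kept by 20 of the 22 in the iKO libraries alone, by 5 in the WT libraries alone and by 2, Fosl2 and Sik1, in every fit that left out 1 library.

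Several antioxidant enzymes rose. Of 30 NRF2 and oxidative stress genes tested, 6 were called higher (20%, against 6.56% of all genes) and 1 lower (3.33%, against 5.12%). For 7 of the 30, all CFA libraries lay above all vehicle libraries, and over all genes this share was 7.0%. Gpx4, which reduces lipid peroxides in membranes, stood at 291 and 270.2 CPM in the WT vehicle libraries, 338 and 339.6 in those of iKO vehicle, 383 and 976 in those of WT CFA, and 662 and 709.6 in those of iKO CFA. The CFA libraries were all above the vehicle libraries, WT CFA replicate 1 by the smallest margin, with log2 fold change 1.15 ± 0.26 (SE), adjusted p = 0.0311, and similar changes of 1.28 in WT and 1.02 in iKO. Gpx1, a cytosolic peroxide-reducing enzyme, rose (log2 fold change 0.82 ± 0.21 (SE), adjusted p = 0.0408), at 186 and 167 CPM in the WT vehicle libraries, 194 and 182 in those of iKO vehicle, 203 and 404 in those of WT CFA, and 341 and 335 in those of iKO CFA. Sod1, the copper-zinc superoxide dismutase, rose too (log2 fold change 0.73 ± 0.15 (SE), adjusted p = 0.0277), at 77.3 and 91.4 CPM in the WT vehicle libraries, 147 and 146 in those of iKO vehicle, 147 and 218 in those of WT CFA, and 184 and 190.0 in those of iKO CFA. In Sod1 the lowest CFA library was less than 1 CPM above the highest vehicle library. Nqo1, the quinone reductase often read as an NRF2 target, changed by 0.64 (SE 0.16, adjusted p = 0.0415), and Taldo1 of the pentose phosphate pathway by 0.66 (SE 0.14, adjusted p = 0.0297). The exception in this list was the metallothionein Mt2, a metal-binding protein also induced by glucocorticoids, at 210.0 and 189 CPM in the WT vehicle libraries, 21.6 and 19.3 in those of iKO vehicle, 13.6 and 26.4 in those of WT CFA, and 26.5 and 21.9 in those of iKO CFA. It was high in the WT vehicle libraries alone and called lower (log2 fold change -1.54 ± 0.21 (SE), adjusted p = 0.0127).

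Chaperones were called in both directions. Of 36 heat shock genes tested, 3 were called higher (8.33%, against 6.56% of all genes) and 1 lower (2.78%, against 5.12%). The median change was -0.08. Hspb8, a small heat shock protein of chaperone-assisted autophagy, stood at 198 and 258 CPM in the WT vehicle libraries, 419 and 405 in those of iKO vehicle, 507 and 687 in those of WT CFA, and 520.2 and 541 in those of iKO CFA. All CFA values were above all vehicle values (log2 fold change 0.88 ± 0.16 (SE), adjusted p = 0.0198), with a change of 1.39 in WT and 0.36 in iKO. The co-chaperones Dnajb1 (log2 fold change 0.48 ± 0.13 (SE), adjusted p = 0.048) and Cacybp (log2 fold change 0.74 ± 0.18 (SE), adjusted p = 0.0384) rose with separated libraries. Dnajb4, another co-chaperone, fell (log2 fold change -0.52 ± 0.12 (SE), adjusted p = 0.031). None of 24 integrated stress response genes was called in edgeR, although 3 had separated libraries. Of 26 unfolded protein response genes 2 were called, both lower (7.69%, against 5.12% of all genes).

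The mitophagy receptors Bnip3 and Bnip3l, which mark mitochondria for removal and are known hypoxia targets, both rose. Bnip3l stood at 163 and 128 CPM in the WT vehicle libraries, 152 and 149 in those of iKO vehicle, 174 and 271 in those of WT CFA, and 237 and 224 in those of iKO CFA. Its libraries were separated, with changes of 0.61 in WT and 0.62 in iKO (log2 fold change 0.62 ± 0.17 (SE), adjusted p = 0.0492). Bnip3 changed by 0.58 (SE 0.15, adjusted p = 0.0392), with 0.98 in WT and 0.18 in iKO. In the hypoxia list 3 of 21 genes were called higher (14.3%, against 6.56% of all genes) and 1 lower (4.76%, against 5.12%).

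Many glucocorticoid-responsive genes fell. Of 23 tested, 0 were called higher and 10 lower (43.5%, against 5.12% of all genes). For 5 of the 23, all CFA libraries lay below all vehicle libraries, and over all genes this share was 3.66%. With 1 library left out, 0 to 14 were called lower. The list's median change was -0.77 in the average, -1.0 in WT and 0.05 in iKO. Tsc22d3, which encodes the glucocorticoid-induced leucine zipper, stood at 283 and 209.9 CPM in the WT vehicle libraries, 174 and 161 in those of iKO vehicle, 146 and 106 in those of WT CFA, and 111 and 106 in those of iKO CFA. The CFA libraries were all lower (log2 fold change -0.80 ± 0.16 (SE), adjusted p = 0.0241). Klf9, a glucocorticoid-induced transcription factor, stood at 178 and 152 CPM in the WT vehicle libraries, 119.6 and 117 in those of iKO vehicle, 108 and 92.2 in those of WT CFA, and 85.6 and 86.8 in those of iKO CFA, again with no overlap (log2 fold change -0.59 ± 0.12 (SE), adjusted p = 0.0278). Zbtb16, a zinc finger factor strongly induced by the hormone, fell further, and stood at 26.4 and 19.8 CPM in the WT vehicle libraries, 4.78 and 3.39 in those of iKO vehicle, 2.96 and 0.24 in those of WT CFA, and 1.08 and 1.34 in those of iKO CFA (log2 fold change -2.78 ± 0.54 (SE), adjusted p = 0.0238). Hif3a, a hypoxia factor family member also induced by the hormone, stood at 7.84 and 3.66 CPM in the WT vehicle libraries, 2.43 and 1.32 in those of iKO vehicle, 0.561 and 0.65 in those of WT CFA, and 0.271 and 0.466 in those of iKO CFA. The CFA libraries were all lower, with changes of -3.24 in WT and -2.33 in iKO (log2 fold change -2.79 ± 0.40 (SE), adjusted p = 0.015). Per1, a clock gene with glucocorticoid control, fell, and stood at 69.4 and 62 CPM in the WT vehicle libraries, 23 and 23.1 in those of iKO vehicle, 17.8 and 17.8 in those of WT CFA, and 18.1 and 13.6 in those of iKO CFA (log2 fold change -1.21 ± 0.14 (SE), adjusted p = 0.00686), and its fall differed between genotypes (adjusted p = 0.0219 for the difference). WT vehicle libraries were the highest for each of these 5 genes. The hour of collection was not stated.

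Immediate early genes had a median change of -1.47 in WT and 0.17 in iKO. Of 44 tested, 0 were called higher and 16 lower (36.4%, against 5.12% of all genes). Between genotypes 24 differed (54.5% of the list against 9.36% of all genes). For 3 of the 44, all CFA libraries lay below all vehicle libraries, and over all genes this share was 3.66%. With 1 library left out, 5 to 23 were called lower. Fos, the activity-induced subunit of the AP-1 transcription factor, stood at 99.1 and 91.9 CPM in the WT vehicle libraries, 4.09 and 5.63 in those of iKO vehicle, 4.7 and 3.01 in those of WT CFA, and 5.21 and 5.87 in those of iKO CFA. The WT vehicle libraries were far above the other 6, which overlapped, so the averaged change (log2 fold change -2.22 ± 0.18 (SE), adjusted p = 0.00157) came from WT (-4.62) and not from iKO (0.19). The matrix signalling protein gene Ccn1 (log2 fold change -2.41 ± 0.17 (SE), adjusted p = 0.000938), the mRNA decay factor gene Zfp36 (log2 fold change -1.94 ± 0.18 (SE), adjusted p = 0.00317) and the phosphatase gene Dusp1 (log2 fold change -0.92 ± 0.13 (SE), adjusted p = 0.0154) had the same form. Fosl2, an AP-1 subunit, stood at 112 and 93.8 CPM in the WT vehicle libraries, 17.4 and 17.6 in those of iKO vehicle, 15.2 and 14.1 in those of WT CFA, and 13.7 and 16.7 in those of iKO CFA. All CFA libraries were below all vehicle libraries (log2 fold change -1.51 ± 0.13 (SE), adjusted p = 0.00192), but the gap in iKO was under 1 CPM. Sik1, a kinase that restrains cAMP signalling, separated more clearly, at 31.4 and 24.9 CPM in the WT vehicle libraries, 7.45 and 7.43 in those of iKO vehicle, 4.65 and 3.29 in those of WT CFA, and 4.64 and 4.82 in those of iKO CFA (log2 fold change -1.74 ± 0.17 (SE), adjusted p = 0.00414), with changes of -2.82 in WT and -0.65 in iKO. The difference between genotypes was called for each of these 6 genes.

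A stretch of the Dusp1 promoter is shown because its cAMP response element is the kind of site through which such genes answer neuronal activity. Capitals mark TGACGTCA. The sequence is from RefSeq on GRCm38.p6, at chr17:26508568-26508655, minus strand, read 5′ to 3′.
Dusp1: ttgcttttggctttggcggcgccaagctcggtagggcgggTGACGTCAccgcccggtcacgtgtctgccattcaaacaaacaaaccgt
TGACGTCA, searched on both strands in the window from 250 bases before to 50 bases after each start, occurred in 2 of 12 immediate early genes called lower that had a promoter sequence (16.7%), 4 of 33 of that list tested (12.1%) and 431 of 14624 genes tested with a sequence (2.95%). The glucocorticoid response element, searched as its palindromic consensus on both strands, was in 0 of 9 glucocorticoid-responsive genes called lower, in 2 of 20 of that list tested (10%) and in 65 of the 14624 (0.444%).

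Among genes of nerve injury and axon growth, more fell than rose. Of 31 tested, 1 was called higher (3.23%, against 6.56% of all genes) and 6 lower (19.4%, against 5.12%). Sox11, a growth-associated transcription factor, stood at 38.8 and 22.2 CPM in the WT vehicle libraries, 15 and 11.6 in those of iKO vehicle, 9.93 and 7.67 in those of WT CFA, and 7.59 and 7.35 in those of iKO CFA, with the libraries separated (log2 fold change -1.31 ± 0.21 (SE), adjusted p = 0.0171). The adhesion and guidance genes Flrt3 (log2 fold change -0.71 ± 0.14 (SE), adjusted p = 0.0227) and Sema6a (log2 fold change -0.92 ± 0.20 (SE), adjusted p = 0.0283) were also separated and lower. Atf3, the usual marker of axotomised neurons, stood at 117 and 86.8 CPM in the WT vehicle libraries, 15.2 and 17.6 in those of iKO vehicle, 22.5 and 32.8 in those of WT CFA, and 18.8 and 16.7 in those of iKO CFA. Only the WT vehicle libraries were high, and the iKO change was 0.11 (log2 fold change -0.89 ± 0.17 (SE), adjusted p = 0.022 in the average). The gene called higher was Bdnf, a neurotrophin released by nociceptors, at 30.2 and 35.1 CPM in the WT vehicle libraries, 58.9 and 49.6 in those of iKO vehicle, 65.9 and 82.8 in those of WT CFA, and 77.2 and 71.8 in those of iKO CFA. It was higher in every CFA library than in every vehicle library (log2 fold change 0.82 ± 0.14 (SE), adjusted p = 0.0181).

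**Figure D2:**
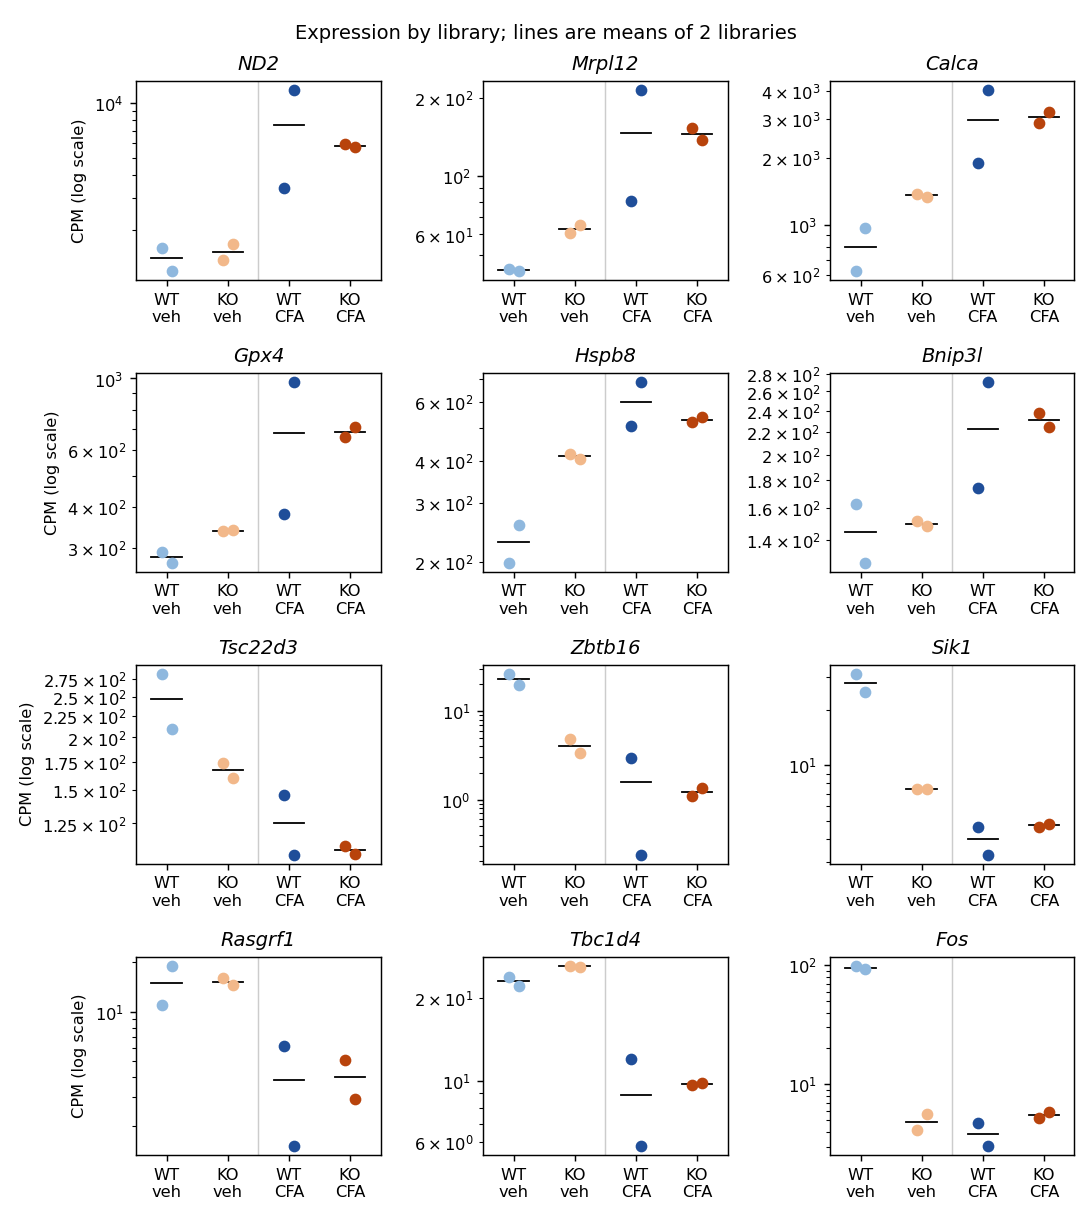
Expression of 12 genes in each library (vertical axes, CPM on a log scale; groups on the horizontal axes, vehicle left and CFA right of the grey line; points are libraries and lines are means of 2). In ND2, Mrpl12, Calca, Gpx4, Hspb8 and Bnip3l all 4 CFA libraries lie above all 4 vehicle libraries, in Tsc22d3, Zbtb16, Sik1, Rasgrf1 and Tbc1d4 all lie below, and in Fos only the 2 WT vehicle libraries stand apart.

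The genes encoded by the mitochondrial genome, subunits of the respiratory chain, formed the group with the largest share called. Of 13 tested, 11 were called higher (84.6%, against 6.56% of all genes) and 0 lower, and 9 were separated. The median change was 1.74 in the average, 1.61 in WT and 1.86 in iKO. ND2, a complex I subunit, stood at 1605 and 1197 CPM in the WT vehicle libraries, 1364 and 1681 in those of iKO vehicle, 3426 and 11742 in those of WT CFA, and 5920.5 and 5711 in those of iKO CFA. All CFA libraries exceeded all vehicle libraries (log2 fold change 2.19 ± 0.35 (SE), adjusted p = 0.0171). ATP6, a subunit of ATP synthase, rose, and stood at 20.6 and 13.5 CPM in the WT vehicle libraries, 18.9 and 29.6 in those of iKO vehicle, 61.7 and 253 in those of WT CFA, and 91.7 and 97.9 in those of iKO CFA (log2 fold change 2.59 ± 0.41 (SE), adjusted p = 0.0171). CYTB, the complex III subunit, stood at 5531 and 4409 CPM in the WT vehicle libraries, 2207 and 3103 in those of iKO vehicle, 7531 and 22869 in those of WT CFA, and 9860.3 and 9394 in those of iKO CFA (log2 fold change 1.74 ± 0.32 (SE), adjusted p = 0.0215). In all 3 genes WT CFA replicate 2 was the highest library and WT CFA replicate 1 the lowest of the CFA side. ND1 (log2 fold change 1.76 ± 0.33 (SE), adjusted p = 0.0217), ND5 (log2 fold change 1.83 ± 0.34 (SE), adjusted p = 0.0215) and ND6 (log2 fold change 1.86 ± 0.32 (SE), adjusted p = 0.0194) moved by similar amounts. ATP8 and COX3 did not pass (adjusted p = 0.0607 and 0.181, genes named after their values were seen because they were the exceptions). The 13 genes held 1.34% and 1.86% of reads in the iKO vehicle libraries, 3.57% and 2.76% in those of WT vehicle, 3.94% and 12.1% in WT CFA and 6.09% and 5.95% in iKO CFA. Near-identical nuclear copies, the overlap of ATP8 with ATP6 and the antisense neighbours ND5 and ND6 can share reads, since the strand setting was not stated. With 1 library left out, between 0 and 13 of the 13 were called, and in iKO alone all 13.

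Some nuclear genes for the same machinery rose as well. Complex I subunits had 13 of 38 called higher (34.2%, against 6.56% of all genes) and 1 lower (2.63%, against 5.12%). Complexes III to V had 14 of 37 higher (37.8%) and 0 lower, and mitochondrial ribosomal proteins 21 of 55 higher (38.2%) and 0 lower. Their median changes were 0.53, 0.54 and 0.44. These are short transcripts, with list medians of 685.5, 645 and 970.0 bases, and among all genes of up to 1 kb 11.5% were called higher. With an offset for length 10, 10 and 18 of them were called higher. Mrpl12, a protein of the large mitochondrial ribosomal subunit, stood at 44.1 and 43.6 CPM in the WT vehicle libraries, 60.6 and 65 in those of iKO vehicle, 80.3 and 214 in those of WT CFA, and 153 and 138 in those of iKO CFA. The libraries were separated (log2 fold change 1.48 ± 0.27 (SE), adjusted p = 0.0202). Ndufb8, an accessory subunit of complex I, rose, and stood at 131 and 148 CPM in the WT vehicle libraries, 179.8 and 189 in those of iKO vehicle, 244 and 673 in those of WT CFA, and 444 and 426 in those of iKO CFA (log2 fold change 1.48 ± 0.28 (SE), adjusted p = 0.0216). Other complex I members were Ndufc2 (log2 fold change 1.27 ± 0.24 (SE), adjusted p = 0.0216) and Ndufs8 (log2 fold change 1.01 ± 0.20 (SE), adjusted p = 0.0238). Uqcrq of complex III (log2 fold change 1.24 ± 0.26 (SE), adjusted p = 0.0283) and Cox6a1 of complex IV (log2 fold change 0.78 ± 0.17 (SE), adjusted p = 0.0289) were separated too. Ndufs5 was the member called lower, at 63.9 and 71.3 CPM in the WT vehicle libraries, 98.3 and 102 in those of iKO vehicle, 12.1 and 17.9 in those of WT CFA, and 143 and 141 in those of iKO CFA. It was low in WT CFA and highest in iKO CFA, so its average of -0.83 combined -2.17 in WT with 0.50 in iKO (adjusted p = 0.00302 for the difference). Processed copies of Ndufs5 can share its reads.

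Short stretches before the start sites of 4 of these risers are shown because they carry the ETS family motif, known as a frequent element of housekeeping mitochondrial promoters. They were picked as the members with the smallest p whose motif lay wholly before the start, after their values were seen. Capitals mark CCGGAAG, or CTTCCGG where it lies on the opposite strand. Sequences are from RefSeq on GRCm38.p6, 5′ to 3′ along the gene: Mrps16 at chr14:20393518-20393604, minus strand, Mrpl27 at chr11:94653696-94653782, plus strand, Mrpl22 at chr11:58171571-58171657, plus strand, and Atp5e at chr2:174464157-174464243, minus strand.
Mrps16: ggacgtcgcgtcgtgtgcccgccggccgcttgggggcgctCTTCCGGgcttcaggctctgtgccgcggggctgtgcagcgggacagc
Mrpl27: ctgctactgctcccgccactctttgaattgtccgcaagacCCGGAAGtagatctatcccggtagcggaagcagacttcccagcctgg
Mrpl22: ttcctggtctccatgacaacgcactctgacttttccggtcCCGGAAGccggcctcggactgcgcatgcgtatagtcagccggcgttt
Atp5e: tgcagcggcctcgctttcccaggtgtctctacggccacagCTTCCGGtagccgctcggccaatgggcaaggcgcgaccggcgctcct
These genes changed by 0.95, 0.81, 0.70 and 1.11 on the log2 scale, with adjusted p = 0.0234, 0.0289, 0.0309 and 0.0317, and all 4 had separated libraries. The motif was found on either strand in 19 of 44 nuclear respiratory chain and mitochondrial ribosome genes called higher (43.2%), in 33 of 111 of these genes tested (29.7%), in 226 of 1037 genes called higher (21.8%) and in 2298 of 14624 genes tested with a promoter sequence (15.7%). Proteasome genes went the other way, with the motif in 1 of 8 called higher (12.5%) and 10 of 25 tested (40%). The palindromic NRF1 motif was found in 1 of the 44 (2.27%), 6 of the 111 (5.41%) and 262 of the 14624 (1.79%).

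Some genes of protein synthesis and turnover rose. Of 77 cytosolic ribosomal protein genes, also short at a list median of 711.5 bases, 12 were called higher (15.6%) and 0 lower, or 10 higher with the length offset, with a median change of 0.46, from 0.13 in WT and 0.83 in iKO. Rps2 stood at 143 and 104 CPM in the WT vehicle libraries, 239 and 245 in those of iKO vehicle, 336 and 628 in those of WT CFA, and 429.9 and 471 in those of iKO CFA. Rps18 rose by a like amount (log2 fold change 1.36 ± 0.22 (SE), adjusted p = 0.0171), and both had separated libraries (log2 fold change 1.43 ± 0.21 (SE), adjusted p = 0.0162 for Rps2). Ribosomal protein genes have many processed copies, so reads may be split among them. Of 31 proteasome genes, 10 were called higher (32.3%, against 6.56% of all genes) and 0 lower. For 17 of the 31, all CFA libraries lay above all vehicle libraries, and over all genes this share was 7.0%. Psmb5, a catalytic subunit, stood at 61 and 82.2 CPM in the WT vehicle libraries, 133 and 137 in those of iKO vehicle, 166 and 289 in those of WT CFA, and 238 and 224 in those of iKO CFA (log2 fold change 1.22 ± 0.19 (SE), adjusted p = 0.0171). Psmb1, a subunit of the same core, rose, and stood at 194 and 192 CPM in the WT vehicle libraries, 239 and 240.3 in those of iKO vehicle, 294 and 481 in those of WT CFA, and 350.1 and 389 in those of iKO CFA (log2 fold change 0.82 ± 0.17 (SE), adjusted p = 0.0268).

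Some peptides of pain-sensing neurons rose. Of 28 sensory neuropeptide genes, 5 were called higher (17.9%, against 6.56% of all genes) and 1 lower (3.57%, against 5.12%). Of the 28, 6 were separated above, and over all genes this share was 7.0%. Calca, which encodes calcitonin gene-related peptide, stood at 624 and 972 CPM in the WT vehicle libraries, 1378 and 1343 in those of iKO vehicle, 1890.3 and 4032 in those of WT CFA, and 2855 and 3229 in those of iKO CFA. Every CFA library exceeded every vehicle library (log2 fold change 1.53 ± 0.26 (SE), adjusted p = 0.0184). Tac1, the substance P precursor, stood at 128 and 196 CPM in the WT vehicle libraries, 165 and 161 in those of iKO vehicle, 301 and 366 in those of WT CFA, and 244 and 255 in those of iKO CFA and was likewise separated (log2 fold change 0.83 ± 0.16 (SE), adjusted p = 0.0239). Nppb, the natriuretic peptide of itch neurons, rose further, and stood at 8.08 and 10.7 CPM in the WT vehicle libraries, 13.2 and 11.9 in those of iKO vehicle, 27.6 and 66 in those of WT CFA, and 33.8 and 31.7 in those of iKO CFA (log2 fold change 1.85 ± 0.26 (SE), adjusted p = 0.014). Calcb, the second calcitonin gene-related peptide gene, changed by 0.91 (SE 0.19, adjusted p = 0.0263). Vehicle levels of Calca were higher in iKO than in WT, so its WT change of 1.89 exceeded the iKO change of 1.16, but the difference was not called (adjusted p = 0.346).

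Markers of pain-sensing neurons moved unevenly. Of 17 peptidergic nociceptor genes, 8 were called higher (47.1%, against 6.56% of all genes) and 1 lower (5.88%, against 5.12%). Their median was 0.63 in WT and -0.24 in iKO. Of 25 non-peptidergic nociceptor genes, 3 were called higher (12%) and 0 lower. Trpv1, the capsaicin and heat channel, stood at 66.7 and 98 CPM in the WT vehicle libraries, 130.4 and 139.6 in those of iKO vehicle, 199 and 182 in those of WT CFA, and 142 and 139 in those of iKO CFA. Only WT vehicle stood low (log2 fold change 0.64 ± 0.15 (SE), adjusted p = 0.0335), with a change of 1.21 in WT and 0.060 in iKO and a called difference (adjusted p = 0.0473). Trpa1, the irritant channel, stood at 40.7 and 58.1 CPM in the WT vehicle libraries, 87.9 and 74.5 in those of iKO vehicle, 124 and 77.2 in those of WT CFA, and 54.7 and 57.5 in those of iKO CFA. Its average did not pass (log2 fold change 0.25 ± 0.19 (SE), adjusted p = 0.391), because the WT change of 1.03 met an opposite iKO value of -0.53 (adjusted p = 0.0384 for the difference). The itch receptor Mrgprx1 stood at 8.98 and 13.1 CPM in the WT vehicle libraries, 25.7 and 24.1 in those of iKO vehicle, 37.8 and 34.2 in those of WT CFA, and 28.7 and 30.5 in those of iKO CFA. It was separated (log2 fold change 0.97 ± 0.15 (SE), adjusted p = 0.0166), and Mrgpra3 changed by 0.59 (SE 0.16, adjusted p = 0.0446), members of a multigene family whose reads may be shared. Ano1, a calcium-activated chloride channel of nociceptors, went the other way, at 7.1 and 6.55 CPM in the WT vehicle libraries, 11.6 and 11.7 in those of iKO vehicle, 5.05 and 4.86 in those of WT CFA, and 4.73 and 2.8 in those of iKO CFA, with all CFA libraries below vehicle (log2 fold change -1.05 ± 0.20 (SE), adjusted p = 0.0238).

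Some genes of large myelinated neurons fell. Of 20 large myelinated neuron genes, 0 were called higher and 5 lower (25%, against 5.12% of all genes). The median change was 0.27 in WT and -1.12 in iKO. These signs were not particular to the list. Medians in WT and iKO were 0.51 and -0.78 for pan-neuronal genes and 0.42 and -1.04 for sodium channels. They were 0.35 and -0.85 for potassium channels and 0.14 and -0.96 for calcium channels, but 0.58 and 0.19 for sensory neuropeptides. Of 25 pan-neuronal genes, 1 was called lower (4%). Ntrk3, the neurotrophin-3 receptor of proprioceptors and touch neurons, stood at 174 and 249 CPM in the WT vehicle libraries, 294 and 299 in those of iKO vehicle, 215 and 68.8 in those of WT CFA, and 79.7 and 71.4 in those of iKO CFA. Both iKO CFA libraries and WT CFA replicate 2 were low, and WT CFA replicate 1 was among the vehicle values (log2 fold change -1.27 ± 0.31 (SE), adjusted p = 0.038). Calb1, a calcium-binding protein of such neurons, was called lower as well (log2 fold change -0.75 ± 0.16 (SE), adjusted p = 0.029). Of the channels, 0 of 14 sodium channel genes were called higher and 2 lower (14.3%). Potassium channel genes had 1 of 51 called higher and 2 lower (3.92%), and calcium channel genes 1 of 20 higher and 1 lower (5%), shares lower that are close to the 5.12% of all genes. Kcna1, a low-threshold potassium channel of myelinated axons, stood at 482 and 460.3 CPM in the WT vehicle libraries, 487 and 566 in those of iKO vehicle, 429 and 271 in those of WT CFA, and 232 and 253 in those of iKO CFA, with separated libraries (log2 fold change -0.77 ± 0.17 (SE), adjusted p = 0.0295). Its partner Kcna2 did the same (log2 fold change -0.91 ± 0.23 (SE), adjusted p = 0.0413). Cacna1d, an L-type calcium channel, stood at 11.5 and 13.4 CPM in the WT vehicle libraries, 6.05 and 8.35 in those of iKO vehicle, 5.93 and 3.08 in those of WT CFA, and 2.14 and 3.12 in those of iKO CFA with changes of -1.46 in WT and -1.45 in iKO (log2 fold change -1.45 ± 0.26 (SE), adjusted p = 0.0199). Scn1a and Scn2a, sodium channel subunits, were called lower, Scn1a by -0.68 (SE 0.18, adjusted p = 0.0482) and Scn2a by -0.71 (SE 0.19, adjusted p = 0.0441). Scn1a changed by 0.07 in WT and -1.42 in iKO, Scn2a by -1.20 in WT and -0.22 in iKO, and the libraries of both genes overlapped. Neither kept its call with an offset for transcript length (adjusted p = 0.269 and 0.517).

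Signalling genes that fell included Rasgrf1, a calcium-dependent Ras activator, at 11 and 19.1 CPM in the WT vehicle libraries, 16 and 14.5 in those of iKO vehicle, 6.17 and 1.51 in those of WT CFA, and 5.06 and 2.93 in those of iKO CFA. The CFA libraries were all below the vehicle libraries (log2 fold change -1.94 ± 0.41 (SE), adjusted p = 0.0275). Tbc1d4, a regulator of glucose transporter traffic, stood at 23.8 and 22.1 CPM in the WT vehicle libraries, 26.2 and 25.9 in those of iKO vehicle, 12 and 5.78 in those of WT CFA, and 9.64 and 9.79 in those of iKO CFA (log2 fold change -1.39 ± 0.22 (SE), adjusted p = 0.0167). Sez6l, a neuronal membrane protein gene, fell by a like amount (log2 fold change -1.76 ± 0.31 (SE), adjusted p = 0.0197). Srrm2, a splicing scaffold, stood at 329 and 340.3 CPM in the WT vehicle libraries, 119 and 116 in those of iKO vehicle, 109.6 and 41.3 in those of WT CFA, and 49.1 and 40.6 in those of iKO CFA, with changes of -2.15 in WT and -1.39 in iKO (log2 fold change -1.77 ± 0.27 (SE), adjusted p = 0.0166). The germ cell gene Prdm9 was low throughout, at 4.69 and 4.26 CPM in the WT vehicle libraries, 1.54 and 2.21 in those of iKO vehicle, 1.12 and 0.787 in those of WT CFA, and 0.844 and 0.164 in those of iKO CFA (log2 fold change -2.06 ± 0.46 (SE), adjusted p = 0.0305). Among the largest falls with separated libraries were also Atp10d (-2.29, SE 0.28, adjusted p = 0.00872), Pla2g4e (-2.56, SE 0.54, adjusted p = 0.0281) and Samd11 (-1.91, SE 0.20, adjusted p = 0.00481). These 3 fell in WT, and their iKO values were -0.77, -0.28 and -0.64.

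The largest rise among genes with separated libraries and a mean of at least 1 on the log2 CPM scale was that of Cfd, the complement protease adipsin made mainly by fat cells. It stood at 0.536 and 0.774 CPM in the WT vehicle libraries, 0.392 and 0.115 in those of iKO vehicle, 1.39 and 5.92 in those of WT CFA, and 28.8 and 44 in those of iKO CFA. CFA libraries were all above vehicle, the iKO pair by far (log2 fold change 4.78 ± 0.52 (SE), adjusted p = 0.00635), and the response differed between genotypes (adjusted p = 0.0311). Adipoq, the fat cell hormone adiponectin, followed the same order, at 0.201 and 0.238 CPM in the WT vehicle libraries, 0.0245 and 0.201 in those of iKO vehicle, 0.534 and 1.68 in those of WT CFA, and 4.19 and 6.28 in those of iKO CFA (log2 fold change 3.92 ± 0.60 (SE), adjusted p = 0.0166). Of 13 adipocyte genes tested 5 were called higher (38.5%, against 6.56% of all genes) and 0 lower. Their summed level ran from 50.86 to 102.1 CPM in vehicle, 49.25 and 84.97 in WT CFA and 157.8 and 186.0 in iKO CFA. Whether fat beside the ganglion was collected with it was not tested. Slc6a13, a GABA and taurine transporter of the meninges, rose, and stood at 3.92 and 5.33 CPM in the WT vehicle libraries, 3.7 and 3.96 in those of iKO vehicle, 6.36 and 15.9 in those of WT CFA, and 24.5 and 33.9 in those of iKO CFA (log2 fold change 2.1 ± 0.29 (SE), adjusted p = 0.014). Further large rises with separated libraries were Plac9a (2.15, SE 0.33, adjusted p = 0.0166), Lypd2 (2.41, SE 0.41, adjusted p = 0.0188), Efcab10 (1.81, SE 0.37, adjusted p = 0.0251) and the zinc finger genes Zfp97 (2.18, SE 0.35, adjusted p = 0.0171) and Zfp931 (1.83, SE 0.34, adjusted p = 0.0211). Srd5a2, the steroid 5-alpha reductase gene, stood at 0 and 0.328 CPM in the WT vehicle libraries, 0.392 and 0.459 in those of iKO vehicle, 14.9 and 1.92 in those of WT CFA, and 1.39 and 0.822 in those of iKO CFA. Its high value was that of WT CFA replicate 1 (log2 fold change 3.49 ± 0.81 (SE), adjusted p = 0.0325).

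Neutrophil and mast cell genes had a median change of 0.87 in WT and 3.75 in iKO. Of 26 tested, 14 were called higher (53.8%, against 6.56% of all genes) and 0 lower. For 2 of the 26, all CFA libraries lay above all vehicle libraries, and over all genes this share was 7.0%. Ltf, which encodes lactoferrin, stood at 5.19 and 3.6 CPM in the WT vehicle libraries, 14.4 and 10.4 in those of iKO vehicle, 5.1 and 25.3 in those of WT CFA, and 175 and 183 in those of iKO CFA. WT CFA replicate 1 lay among the vehicle libraries (log2 fold change 2.82 ± 0.43 (SE), adjusted p = 0.0166). Elane, neutrophil elastase, was separated, at 0.637 and 0.149 CPM in the WT vehicle libraries, 0.417 and 0.574 in those of iKO vehicle, 0.961 and 1.75 in those of WT CFA, and 6.0 and 7.84 in those of iKO CFA (log2 fold change 2.79 ± 0.45 (SE), adjusted p = 0.0171). Mpo, myeloperoxidase, changed by 2.2 (SE 0.33, adjusted p = 0.0162), at 1.61 and 0.506 CPM in the WT vehicle libraries, 2.06 and 1.49 in those of iKO vehicle, 2.06 and 2.29 in those of WT CFA, and 17.4 and 18.9 in those of iKO CFA. The list summed to 1782.0 and 1792.0 CPM in iKO CFA, 134.7 and 349.3 in WT CFA, and 121.7 to 225.4 in vehicle. Of 12 red cell genes, 4 were called higher (33.3%, against 6.56% of all genes), 0 lower and 0 separated. Their sum was 1658.0 in WT CFA replicate 2, 219.8 in WT CFA replicate 1, 1653.0 and 1768.0 in iKO CFA and 186.0 to 463.6 in vehicle. The part of blood retained in the ganglion in the neutrophil values was not tested.

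Some lymphocyte and plasma cell genes fell. Of 30 tested, 0 were called higher and 12 lower (40%, against 5.12% of all genes), 1 of them with separated libraries. The median was -4.68 in WT and 1.32 in iKO. Jchain, the joining chain of secreted antibodies, stood at 1944 and 780.1 CPM in the WT vehicle libraries, 4.73 and 2.3 in those of iKO vehicle, 0.961 and 0.445 in those of WT CFA, and 23.4 and 31.5 in those of iKO CFA. The WT vehicle libraries were far above the others (log2 fold change -3.96 ± 0.40 (SE), adjusted p = 0.00414), and in iKO the change was 2.96. Of 29 macrophage genes, 0 were called higher and 1 lower in the average (3.45%, against 5.12% of all genes). Between genotypes 22 of them differed, and over all genes 9.36% did. Their medians were -1.07 in WT and 1.63 in iKO. The called one, Cd14, a lipopolysaccharide co-receptor, stood at 30.2 and 33.6 CPM in the WT vehicle libraries, 4.34 and 2.67 in those of iKO vehicle, 4.59 and 6.54 in those of WT CFA, and 7.08 and 5.04 in those of iKO CFA (log2 fold change -0.87 ± 0.22 (SE), adjusted p = 0.0397). Skeletal muscle genes had 4 of 21 called lower (19%, against 5.12% of all genes) and 0 higher. The myosin gene Myh4 stood at 61 and 0.626 CPM in the WT vehicle libraries, 0.662 and 2.01 in those of iKO vehicle, 0.187 and 0 in those of WT CFA, and 0.0603 and 0.11 in those of iKO CFA. Its fall of -6.03 (SE 1.43, adjusted p = 0.0345) moved most with WT vehicle replicate 1, where the muscle list summed to 745.4 CPM against 87.01 to 175.1 in the other 7 libraries. Without that library it was -3.27 (adjusted p = 0.138). The call was also lost without any 1 of the 4 iKO libraries (highest adjusted p 0.135 among these 4), and in the iKO libraries alone the fall was called (-3.88, adjusted p = 0.00735).

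Satellite glia, which wrap the neuron cell bodies, had 4 of 18 genes called higher (22.2%, against 6.56% of all genes) and 1 lower (5.56%, against 5.12%). Fabp7, a fatty acid binding protein of these cells, stood at 209.8 and 267 CPM in the WT vehicle libraries, 252 and 251 in those of iKO vehicle, 341 and 746 in those of WT CFA, and 384 and 385 in those of iKO CFA, with separated libraries (log2 fold change 0.90 ± 0.23 (SE), adjusted p = 0.0425). Apoe, a lipid carrier, and Kcnj10, the glial potassium channel, were separated as well, with changes of 0.82 (SE 0.21, adjusted p = 0.0426) and 0.52 (SE 0.13, adjusted p = 0.0401). Gfap, the intermediate filament often read as glial reactivity, stood at 31.2 and 27.3 CPM in the WT vehicle libraries, 1.59 and 1.18 in those of iKO vehicle, 2.24 and 4.31 in those of WT CFA, and 2.5 and 2.52 in those of iKO CFA. It was called lower (log2 fold change -1.16 ± 0.24 (SE), adjusted p = 0.0252) because only WT vehicle was high, and the iKO value was 0.85. Myelin genes had 0 of 22 called higher and 1 lower (4.55%, against 5.12% of all genes).

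Some chromatin regulators fell. Of 24 H3K4 and H3K27 regulators 0 were called higher and 8 lower (33.3%, against 5.12% of all genes). Of 23 H3K9 methylation genes 2 were called lower (8.7%). Kmt2a, an H3K4 methyltransferase, stood at 101 and 95.7 CPM in the WT vehicle libraries, 37.1 and 40.8 in those of iKO vehicle, 43.5 and 21.2 in those of WT CFA, and 22.7 and 17.7 in those of iKO CFA. WT CFA replicate 1 lay above the iKO vehicle pair (log2 fold change -1.27 ± 0.22 (SE), adjusted p = 0.0188). Kmt2c (log2 fold change -0.92 ± 0.12 (SE), adjusted p = 0.0125) and Kmt2d (log2 fold change -1.32 ± 0.25 (SE), adjusted p = 0.0216), enzymes of the same family, overlapped at the same library. Kdm7a, a histone demethylase, was separated (log2 fold change -0.86 ± 0.17 (SE), adjusted p = 0.0238), and Kdm6b, an H3K27 demethylase, had its fall in WT (-1.82 in WT, 0.083 in iKO, adjusted p = 0.00463 for the difference). These are long transcripts, with a list median of 4266 bases, and 4 of 24 were called lower with an offset for length. Kdm6b and Kdm7a then lost the call (adjusted p = 0.0782 and 0.0768).

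Nuclear noncoding RNAs had 0 of 20 called higher and 9 lower (45.0%, against 5.12% of all genes). Between genotypes 12 of 20 differed, and over all genes 9.36% did. Malat1, a nuclear speckle RNA, stood at 1323 and 1187 CPM in the WT vehicle libraries, 31.9 and 57 in those of iKO vehicle, 36.3 and 39.3 in those of WT CFA, and 27.4 and 35.2 in those of iKO CFA. The maternally expressed RNA Meg3 stood at 877 and 1098 CPM in the WT vehicle libraries, 7.65 and 16.8 in those of iKO vehicle, 8.36 and 3.59 in those of WT CFA, and 5.3 and 3.67 in those of iKO CFA. Snhg11, a neuronal host RNA of small nucleolar RNAs, stood at 721 and 851 CPM in the WT vehicle libraries, 26.7 and 32.5 in those of iKO vehicle, 25.2 and 17.7 in those of WT CFA, and 21.7 and 22.3 in those of iKO CFA. In each, both WT vehicle libraries were far above the other 6, so the averages of -2.78 (SE 0.21, adjusted p = 0.00116), -4.4 (SE 0.36, adjusted p = 0.00151) and -2.81 (SE 0.17, adjusted p = 0.000651) came mostly from WT. Miat had the same form (-3.17, SE 0.24, adjusted p = 0.00125). Snhg11 alone of the 4 had separated libraries, and the iKO changes were -0.51, -1.44, -0.43 and -0.77.

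**Figure D3:**
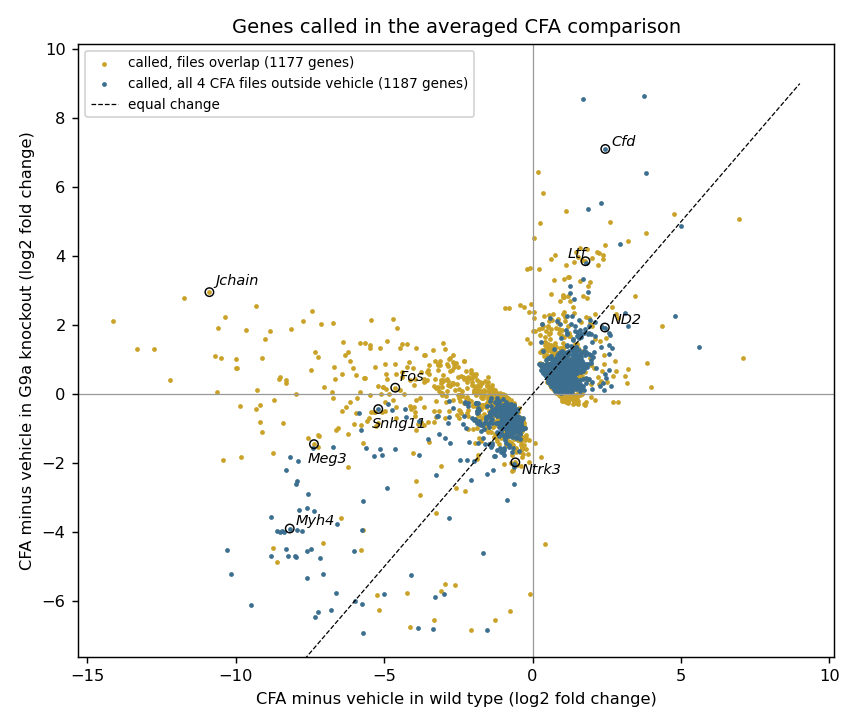
CFA minus vehicle log2 fold change in WT (horizontal) against iKO (vertical) for the 2364 genes called in the average, blue where all 4 CFA libraries lay outside all 4 vehicle libraries (1187 genes) and yellow where they overlapped. ND2 lies near the line of equal change, while Fos, Meg3, Snhg11 and Jchain lie far to the left with iKO changes of 0.19, -1.44, -0.43 and 2.96.

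**Figure D4:**
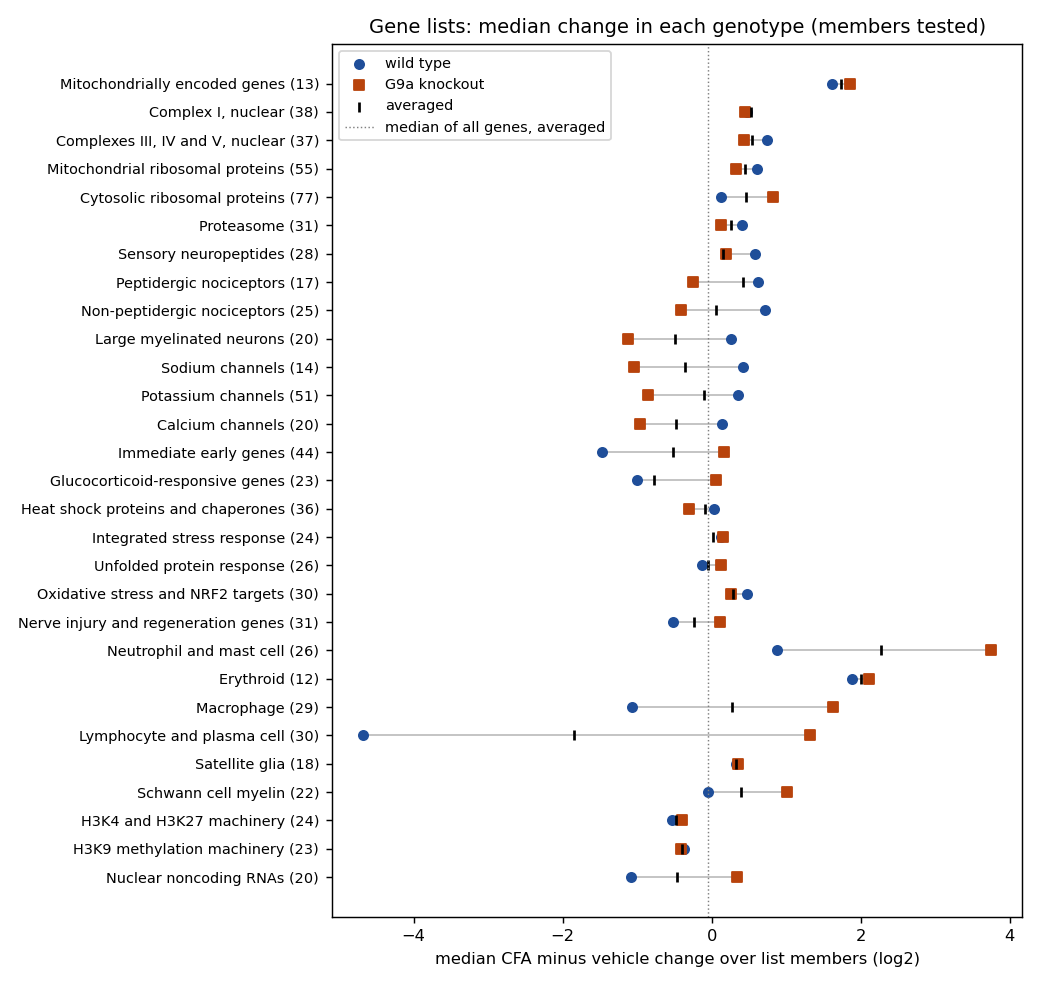
Median CFA minus vehicle change over the tested members of 29 gene lists (horizontal axis, log2; circles WT, squares iKO, ticks the average; number tested in brackets; dotted line the median of all genes). Mitochondrially encoded genes sit together at 1.61 and 1.86, whereas lymphocyte genes lie at -4.68 in WT and 1.32 in iKO.

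Changes also followed transcript length. A length was found for 18415 of the 20235 genes (91%), as the median over a gene's protein-coding transcripts, or over all its transcripts where none is coding. Among 4150 genes of up to 1 kb, 477 were called higher and 119 lower (11.5% and 2.87%), and the median change was 0.18. Among 314 genes over 8 kb, 1 was called higher and 68 lower (0.318% and 21.7%), and the median was -0.59. The median change was -0.42 in WT and -0.66 in iKO for the longest genes. By library, the longest genes stood 0.29 and 0.33 above the mean of 8 libraries in WT vehicle, 0.19 and 0.21 above in iKO vehicle, 0.15 above in WT CFA replicate 1, and 0.48, 0.39 and 0.43 below in WT CFA replicate 2 and both iKO CFA libraries. WT CFA replicate 1 thus lay with the vehicle libraries. Length moves with RNA quality in some preparations, no integrity measure was given in the sources used here, and its part in the results was not tested. With an offset for length in each library, 1799 of the 2364 genes kept the call and sign, as did 18 of the 22 stress genes. Gpx1, Nqo1, Bnip3 and Klf9 lost it (adjusted p = 0.0504, 0.0564, 0.055 and 0.0803). Besides Scn1a, Scn2a, Kdm6b and Kdm7a, the call was also lost by Calb1, Fabp7, Apoe and Mrgpra3. Genes without a length, among them ATP6, ND1, ND2, ND5, ND6 and CYTB, received no offset, so their kept calls do not bear on length.

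**Figure D5:**
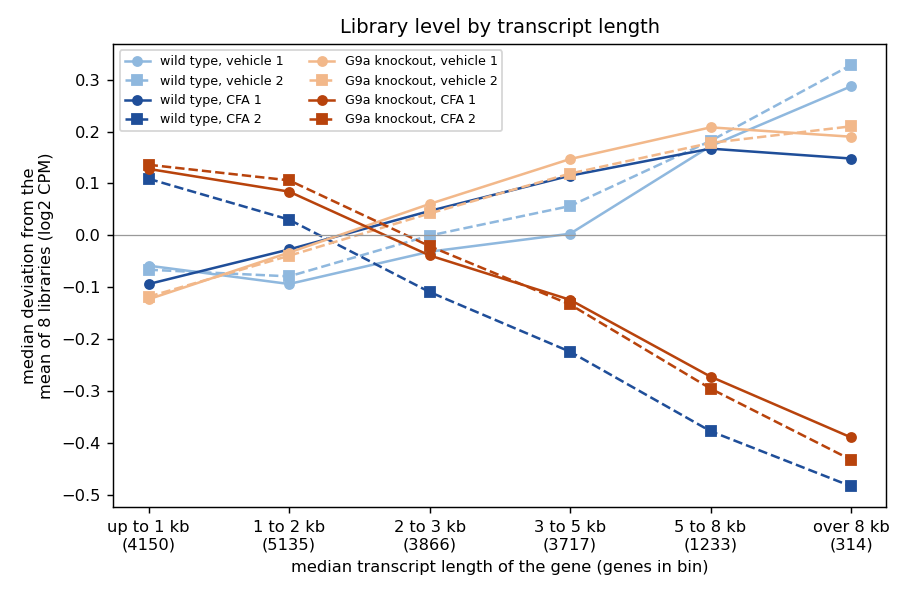
Median deviation of genes from their mean over the 8 libraries (vertical axis, log2 CPM) by transcript length (horizontal axis, number of genes in each bin in brackets), 1 line per library. The 4 vehicle libraries and WT CFA replicate 1 rise with length, and WT CFA replicate 2 and both iKO CFA libraries fall to -0.48, -0.39 and -0.43 over 8 kb.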

How the data were processed

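RNA was sequenced from dorsal root ganglia in 8 libraries, 2 for each combination of genotype and treatment. The authors deposited 1 table of raw read counts per gene symbol for each library. Per the submitters' processing notes, the tools named were HISAT2 2.2.1, SAMtools 1.19.2, featureCounts 2.0.6 and DESeq2, with GRCm39. The strand setting and gene annotation were not given in the sources used here. The counts were tested with edgeR 4.0.16 in R 4.3.3 (quasi-likelihood F-test in its legacy form, TMM scaling, filterByExpr, 1 coefficient per group). The 4 CFA libraries were compared with the 4 vehicle libraries through group means, and the difference between genotypes as an interaction. Standard errors were derived from the F statistic. CPM values were scaled by the TMM factors. The script was tested on simulated data. DESeq2 1.42.0, an additive model, other scaling and filtering, a replicate block, each genotype alone and leaving out each library were alternatives. An offset for transcript length was added after the data were seen. Transcript lengths came from GENCODE on GRCm38 and promoters from RefSeq on GRCm38.p6, matched by symbol, so no other coordinates are given.

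The members and gene lists were chosen with earlier results of these data known. Genes were named where they were among the 12 largest rises or falls with a call, separated libraries and a mean log2 CPM of at least 1, or among the 12 with the largest smaller change of both genotypes, or among up to 4 members of a list with the smallest p, together with Ehmt2, Trpa1 and Trpv1 and the called stress genes with separated libraries. ATP8, COX3, Mrpl27, Mrpl22 and Atp5e were added after their values were seen. Some genes that these rules name are not reported here.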

Additional observations from a re-analysis of the deposited data

Results flagged for a closer look

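The response to CFA differed between genotypes (interaction in edgeR, adjusted p under 0.05) for 26 of the genes named above. Among sensory neuron genes the iKO response minus the WT response, on the log2 scale, was -1.56 for Trpa1, -1.15 for Trpv1, -1.45 for Mrgprx1 and -1.49 for Scn1a. Among immediate early and stress genes it was 2.61 for Fosl2, 5.22 for Ccn1, 4.81 for Fos, 4.89 for Zfp36, 1.35 for Per1, 3.57 for Mt2, 1.99 for Atf3, 1.998 for Dusp1 and 2.17 for Sik1. For immune, fat and glial genes the difference was 4.66 for Cfd, 13.84 for Jchain, 3.31 for Cd14 and 4.02 for Gfap. Noncoding RNAs gave 4.76 for Snhg11, 4.55 for Malat1, 4.82 for Miat and 5.92 for Meg3. The remaining differences were 2.68 for Ndufs5, 1.90 for Kdm6b, 3.05 for Atp10d, 4.57 for Pla2g4e and 2.54 for Samd11. A positive value means a higher response in iKO, and the sensory neuron genes listed here all had negative values. The neuropeptide gene Gal, not among the 26, had a positive difference (2.14, adjusted p = 0.0149). In the immediate early genes and noncoding RNAs listed here, the WT vehicle libraries were the highest of the 8.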

How the results depend on the processing

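The count of calls was the least stable result. With 1 library left out, genes called higher ran from 4 (without WT vehicle replicate 1) to 3777 (without WT CFA replicate 1), lower from 26 to 4988, called with separated libraries from 9 to 5637, and different between genotypes from 228 to 8303. The additive model called 0 higher, 0 lower and 0 with separated libraries. DESeq2 called 2340 higher, 2406 lower and 4133 different between genotypes. The WT libraries alone gave 37 higher and 717 lower, and the iKO libraries alone 4025 higher and 4284 lower. With 2 libraries against 2, every one of these calls (754 and 8309) had separated libraries. The cause was not tested.

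Higher calls were 56.1% of all calls in the reported fit, 52% with DESeq2's size factors in edgeR, 50.7% without a filter, 49.3% in DESeq2, 59.3% with the length offset and 11.4% to 47.8% with 1 library left out. Same-numbered libraries did not deviate together (correlations of -0.357 to 0.204 over 6 pairs of groups), so the numbers were not taken as pairs. With the replicate block, 929 genes were called higher, 782 lower and 1062 different between genotypes.

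Directions changed in single genotypes. In iKO alone the change had the opposite sign for Trpa1 (-0.51), Ndufs5 (0.53), Ccn1 (0.23), Fos (0.22), Zfp36 (0.53), Mt2 (0.27), Atf3 (0.14), Jchain (2.98), Cd14 (0.82), Gfap (0.88), Kdm6b (0.11) and Dusp1 (0.11). In WT alone this held for Ehmt2 (-0.10) and Scn1a (0.011). Of 104 genes named, 100 were called, most of them not in every fit that left out 1 library, and 88 with the length offset. The 88 included ATP6, CYTB, ND1, ND2, ND5 and ND6, which had no length and so received no offset.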
